A study of Mus musculus with 6 samples.

Results

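The metalloproteases that cut the extracellular matrix and the inhibitors that block them were followed in the counts of 6 RNA-seq libraries, 3 of a group labelled D and 3 of a group labelled C. All 58 gene symbols in the count tables that consist of MMP, ADAM, ADAMTS or TIMP and a number, with or without a final letter, were taken, out of 17144 listed genes. They are 19 MMP, 18 ADAM, 17 ADAMTS and 4 TIMP genes, and by textbook role they fall into 47 proteases, 7 ADAM genes whose proteins lack a working catalytic site and 4 inhibitors. Of the 58 genes, 43 passed the filter on low counts and were tested.

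The cells are labelled SaOS2, an established human osteosarcoma line, and the series concerns a compound named DDTC(I). No label says what the letters D and C stand for, no dose or time is given, and each change below is D minus C. Whether the 3 libraries of each group derive from separate cultures is not stated, and p-values therefore reflect only library-to-library spread, which may be technical. Total counts per library ranged from 18446443 to 19802340 in D and from 18532763 to 20602771 in C.

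Matrix metalloproteases (MMPs) are zinc enzymes, most of them secreted as inactive precursors, that together can degrade collagens and the other proteins of the matrix. ADAM proteins sit in the membrane and release the outer parts of growth factors, cytokines and receptors, while the related ADAMTS enzymes are secreted and process procollagens and proteoglycans. TIMPs bind the active site of many of these enzymes and stop them, though not every TIMP blocks every enzyme. In bone, collagen is the main organic component, so the collagenases and their inhibitors are studied in bone tumours as determinants of matrix turnover.

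Some markers go against the SaOS2 label. Of 10 osteoblast markers, SP7, BGLAP and IBSP had at most 3 counts in every library. The cells are therefore named here by their label only. In addition, the D libraries differed from each other along gene length: the slope of a library's deviation from its group mean (log2 CPM per doubling of length) was 0.0126, 0.1704 and −0.183 in D replicates 1, 2 and 3, and −0.0012, −0.0492 and 0.0504 in C replicates 1, 2 and 3.

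Levels per library are given as CPM (counts scaled to a common library size, with TMM factors) in the order of replicates 1, 2 and 3. Levels of different genes are compared only in FPKM, which also divides by gene length. Calls are those with an adjusted p (Benjamini-Hochberg over 12682 genes, edgeR's quasi-likelihood test) under 0.05.

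Secreted collagenases and stromelysins rose in D, most tested ADAM and ADAMTS genes fell, and the inhibitors split. Of the 43 tested genes, 31 were called, 12 of them higher (27.9%) and 19 lower (44.2%). Over the 12682 tested genes, 54.4% were called, 26.8% higher and 27.7% lower. At least a 2-fold change was called for 7 rising and 11 falling members, where the shares of all tested genes were 8.37% and 10.1%. All D libraries lay above all C libraries for 12 members and below them for 20, which held for 30.6% and 32.1% of all tested genes. The median log2 fold change was −0.17 for the 43 genes and −0.02 for all tested genes. The families differed: of 14 tested MMP genes 8 rose and 3 fell (median 0.61), of 12 ADAM genes 2 rose and 8 fell (median −0.76), of 13 ADAMTS genes 0 rose and 7 fell (median −0.60), and of 4 TIMP genes 2 rose and 1 fell. By role, 9 of the 35 tested proteases rose and 15 fell. These counts include members that passed the filter on low counts only because of 1 group. MMP7, MMP10, MMP25, ADAM32 and TIMP4 had at most 10 counts in each C library and passed because of D. ADAM11 had at most 10 in each D library and passed because of C. Genes this low in 1 group were tested only if higher in the other, so the filter partly fixed their direction. The same limit holds for genes named below with as few counts in 1 group. In a bulk RNA sample, fewer cells of a type and less RNA per cell cannot be told apart.

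**Figure D1:**
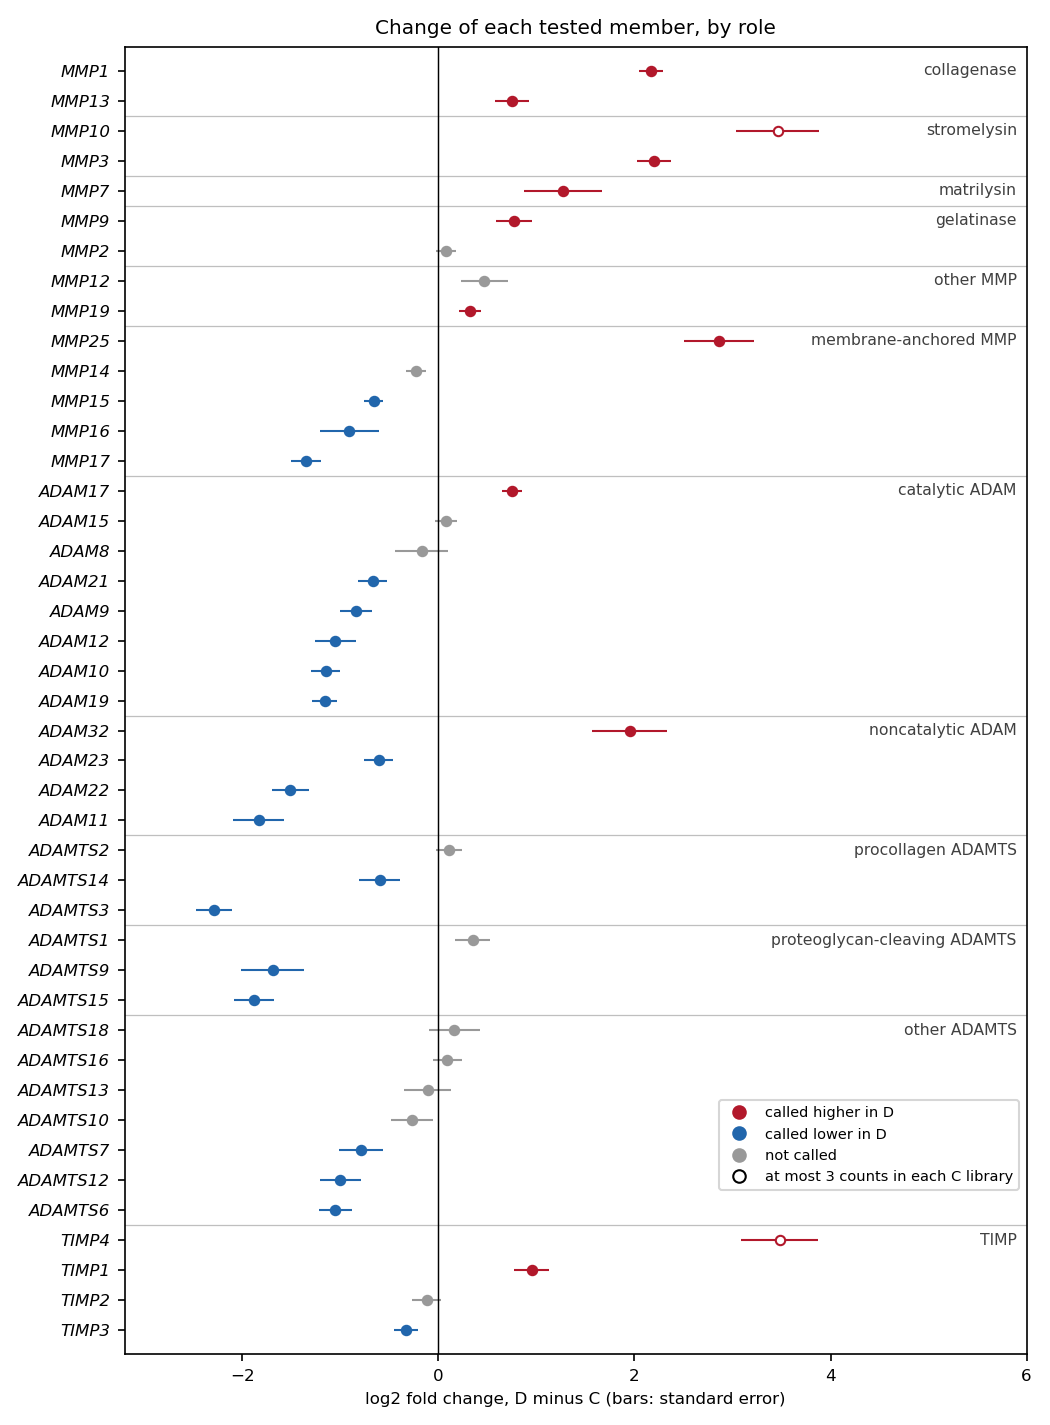
Log2 fold change (D minus C) of the 43 tested genes on the x axis, 1 row per gene, grouped by role; points are edgeR estimates, bars are standard errors, red marks genes called higher in D, blue those called lower and grey those not called. Open symbols mark MMP10 and TIMP4, which had at most 3 counts in each C library, so that their plotted change is imprecise. The collagenases and stromelysins lie right of 0, and no ADAMTS gene is called higher.

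Collagenases make the first cut in fibrillar collagen. MMP1, the interstitial collagenase, had 169, 179 and 209 CPM in the D libraries and 38.2, 43.5 and 42.0 CPM in the C libraries. The groups did not overlap, and the log2 fold change was 2.17 ± 0.12 (SE; adjusted p = 8e-06, edgeR). Per length, MMP1 averaged 89.2 ± 7.31 FPKM in D and 22.1 ± 1.45 FPKM in C (SD, n = 3 each), which placed it 6th among the 58 genes in D and 10th in C. MMP13, the collagenase known from cartilage and bone, was far less abundant, at 4.29, 3.80 and 3.80 CPM in D and 2.56, 1.99 and 2.51 CPM in C. It rose by 0.75 ± 0.17 on the log2 scale (adjusted p = 0.0061, edgeR). MMP8, the collagenase of neutrophils, had at most 2 counts in any library and was not tested.

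Stromelysins cut many matrix proteins other than fibrillar collagen and can activate other MMP precursors. MMP3 (stromelysin 1) had 19.0, 20.5 and 26.3 CPM in the D libraries, against 4.66, 5.41 and 4.22 CPM in the C libraries. Every D library lay above every C library, with a log2 fold change of 2.20 ± 0.17 (adjusted p = 2.7e-05, edgeR). Its change was near that of MMP1, although its level per length was lower, at 11.4 ± 1.64 FPKM in D and 2.75 ± 0.338 FPKM in C (SD, n = 3 each). MMP10 (stromelysin 2) rose from a level close to the counting limit: it had 17, 36 and 28 counts in D and 3, 2 and 3 counts in C. The summed counts, scaled to the library totals, gave a ratio of D over C of 10.4, with a 95% exact interval of 5.03 to 24.9 that covers counting error only (adjusted p = 0.00023, edgeR). MMP11 (stromelysin 3) had at most 1 count in any library.

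MMP7 (matrilysin), a small enzyme without the domain that most other MMPs use to hold their substrates, had 11, 15 and 17 counts in D and 10, 6 and 4 counts in C. Its log2 fold change of 1.27 ± 0.40 passed the test (adjusted p = 0.024, edgeR), but the call was lost without C replicate 2 (1.17) and without C replicate 3 (1.0), and in the fit with replicate blocks (1.28). In the human genome MMP1, MMP3, MMP7, MMP8, MMP10, MMP12 and MMP13 lie together in a cluster. Of these 7 listed genes, a grouping chosen after the values were seen, 6 were tested, 5 rose and 0 fell. Over the 12682 tested genes, rises made up 26.8% and falls 27.7%. The 5 include MMP7 and MMP10, which passed the filter because of D, so their direction was partly fixed. Whether the genes of the cluster changed together was not tested. The remaining tested gene of the cluster, MMP12 (macrophage elastase), had 1.41, 2.08 and 2.33 CPM in D and 1.38, 1.25 and 1.56 CPM in C, with groups that overlapped (0.47 ± 0.24; adjusted p = 0.13, edgeR).

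Gelatinases digest denatured collagen and basement membrane collagen, and they stood apart from each other. MMP2 (gelatinase A) was the most abundant protease at 223 ± 11 FPKM in D and 234 ± 4.03 FPKM in C (SD, n = 3 each). Its CPM values were 997, 895 and 999 in D and 929, 907 and 895 in C. These overlapped, and no change was detected (0.08 ± 0.10; adjusted p = 0.52, edgeR). MMP9 (gelatinase B) had 27.3, 18.8 and 28.8 CPM in D and 13.6, 16.5 and 13.8 CPM in C. It rose by 0.77 ± 0.18 (adjusted p = 0.0063, edgeR), and the D library nearest to C was replicate 2. MMP19, a secreted MMP outside these classes, had 11.2, 11.2 and 10.3 CPM in D and 8.87, 8.64 and 8.77 CPM in C. The groups did not overlap, but the change was small (0.32 ± 0.11; adjusted p = 0.043, edgeR), and it was no longer called without C replicate 1 (0.32), C replicate 2 (0.30), C replicate 3 (0.31) or D replicate 1 (0.29), or in the fit with replicate blocks (0.31). With library size only it was 0.17. In all, 7 of 9 tested secreted MMP genes were called higher and 0 lower, where 26.8% and 27.7% of all tested genes were. The median length of the 9 genes was 1971 bp, and 33.7% of all tested genes up to 3000 bp were called higher. The 7 include MMP7 and MMP10, which passed the filter because of D, and MMP19.

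Membrane-anchored MMPs cut at the cell surface, and 3 of the 5 tested genes fell. MMP14 (MT1-MMP), which activates the MMP2 precursor with the help of TIMP2, was the second most abundant protease at 158 ± 11.9 FPKM in D and 205 ± 1.98 FPKM in C (SD, n = 3 each). Its CPM values were 656, 600.3 and 593 in D, against 723, 729 and 710.2 in C. The groups did not overlap, yet the change of −0.23 ± 0.10 missed the threshold (adjusted p = 0.080, edgeR). It passed with library size only (−0.38), with length trends removed (−0.19) and in limma on log2(FPKM + 1) (−0.38). MMP15 (MT2-MMP) had 43.8, 40.5 and 46.8 CPM in D and 69.5, 69.0 and 69.2 CPM in C. It fell by 0.66 ± 0.10 (adjusted p = 0.00076, edgeR), with little spread in either group.

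MMP17, which is held by a lipid anchor, had 2.76, 2.55 and 2.61 CPM in D and 6.87, 6.15 and 7.16 CPM in C. It fell by 1.35 ± 0.15 (adjusted p = 0.00014, edgeR). MMP16 (MT3-MMP) was uneven within D, with 8.13, 15 and 5.56 CPM in D and 17.9, 16.3 and 19.9 CPM in C. D replicate 2 came close to the C libraries, and the change of −0.91 ± 0.30 (adjusted p = 0.031, edgeR) was −1.36 without D replicate 2 and −0.63 without D replicate 3. Its call was lost without C replicate 1 (−0.92), C replicate 3 (−0.83) or D replicate 1 (−0.80). MMP25, the other lipid-anchored MMP, known from neutrophils, went the opposite way, with 41, 32 and 56 counts in D and 6, 5 and 9 counts in C. The groups were far apart for this rare transcript (2.86 ± 0.36; adjusted p = 0.00027, edgeR). Of 11 macrophage and neutrophil markers, the neutrophil genes MPO and FCGR3B had at most 3 counts in every library. The summed level of the list was 501 to 550.3 CPM in D and 535 to 552 CPM in C, and CD68 alone averaged 481 CPM in D and 486 CPM in C. Of 5 tested markers of the list 2 rose and 1 fell. CD163, a macrophage receptor, had 29, 26 and 21 counts in D and 0, 4 and 2 in C (adjusted p = 0.00039, edgeR). ITGAM, an integrin chain of myeloid cells, had 14, 15 and 11 counts in D and 9, 2 and 6 in C (adjusted p = 0.028, edgeR). The untested CD14 had 11, 5 and 15 counts in D and 3, 1 and 2 in C, and the untested MRC1 3, 5 and 3 against 1, 2 and 2. Other markers of the list went the other way: ADGRE1 fell by 0.42 ± 0.12 (adjusted p = 0.018, edgeR). The untested ELANE had 2, 4 and 2 counts in D and 11, 6 and 9 in C, and the untested PTPRC 2, 3 and 2 against 8, 8 and 2. The part of such cells in the rise of MMP25 was not tested. MMP23B and MMP24 had at most 7 counts in any library and were not tested; MMP23B has a near-identical copy with which it can share reads.

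**Figure D2:**
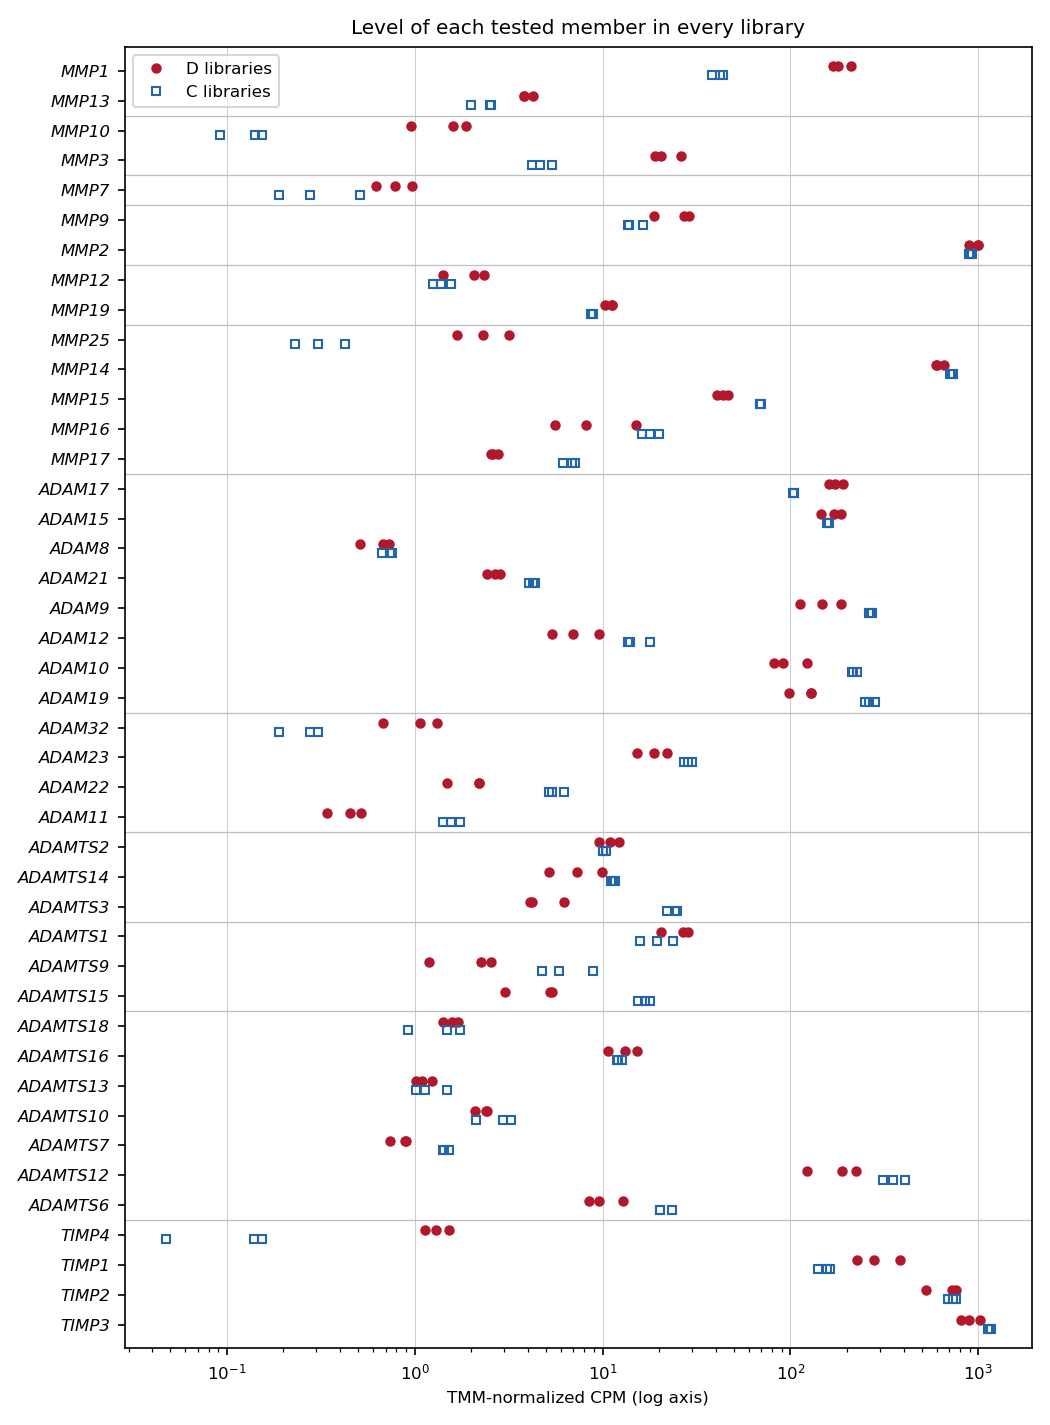
TMM-normalized CPM on a log axis for the 43 tested genes, 1 row per gene in the order of their roles; filled red circles are the 3 D libraries and open blue squares the 3 C libraries. For MMP1 and MMP3 the groups are well separated with D to the right, for MMP2 they overlap, and for ADAM10, ADAM19 and ADAMTS3 D lies to the left.

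The 2 principal sheddases moved in opposite directions. ADAM17 (TACE), which releases TNF and several ligands of the EGF receptor, had 173, 190.1 and 159.9 CPM in D and 104, 105 and 103 CPM in C. It rose by 0.75 ± 0.10 (adjusted p = 0.00041, edgeR). ADAM10, which cuts Notch receptors and the amyloid precursor protein, had 91.5, 122 and 82.0 CPM in D and 227, 213 and 215 CPM in C. It fell by 1.15 ± 0.15 (adjusted p = 0.00034, edgeR). Within each library the FPKM of ADAM17 over that of ADAM10 was 3.22, 2.64 and 3.31 in D, and 0.778, 0.832 and 0.811 in C, so ADAM17 was the more abundant transcript per length in D and the less abundant one in C.

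The meltrins ADAM9, ADAM12 and ADAM19 all fell. ADAM19 (meltrin beta) had 128, 129 and 98.6 CPM in D and 261, 248 and 282 CPM in C, a change of −1.16 ± 0.13 (adjusted p = 0.00015, edgeR). ADAM9 (meltrin gamma), which averaged 32.2 ± 8.62 FPKM in D and 63.8 ± 1.61 FPKM in C (SD, n = 3 each), had 148, 185 and 113 CPM in D and 266, 261 and 272 CPM in C. It fell by 0.84 ± 0.16 (adjusted p = 0.0028, edgeR). ADAM12 (meltrin alpha), which is known for roles in cell fusion and in tumour stroma, had 7.0, 9.53 and 5.39 CPM in D and 14.0, 13.6 and 17.8 CPM in C. This fall of 1.05 ± 0.21 (adjusted p = 0.0031, edgeR) was close in size to that of ADAM19.

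ADAM15, a disintegrin that binds integrins, had 171, 145 and 185 CPM in D and 156, 161 and 159 CPM in C. The groups overlapped, and no change was detected (0.08 ± 0.11; adjusted p = 0.58, edgeR). ADAM21 had 2.43, 2.86 and 2.67 CPM in D and 4.25, 4.39 and 4.08 CPM in C, and it fell by 0.67 ± 0.15 (adjusted p = 0.0060, edgeR). ADAM8 had between 9 and 16 counts in every library and was not called. Of the 8 tested ADAM genes with a working catalytic site, 1 rose and 5 fell.

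ADAM genes whose proteins lack protease activity act in cell contact, and 3 of the 4 tested ones fell. ADAM22, like ADAM23 a receptor of LGI proteins at synapses, had 2.20, 2.19 and 1.48 CPM in D and 6.20, 5.36 and 5.21 CPM in C. It fell by 1.51 ± 0.19 (adjusted p = 0.00030, edgeR). ADAM23 had 18.7, 22.1 and 15.3 CPM in D and 27.1, 28.5 and 30.0 CPM in C. Its fall of 0.61 ± 0.15 (adjusted p = 0.0077, edgeR) was the smallest of the 3. ADAM11 had 8, 10 and 6 counts in D and 34, 34 and 30 counts in C (−1.83 ± 0.26; adjusted p = 0.00055, edgeR). ADAM32, known from testis, was the exception, with 19, 13 and 23 counts in D and 6, 6 and 4 counts in C. It rose by 1.95 ± 0.38 (adjusted p = 0.0027, edgeR).

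Of the 17 ADAMTS genes 13 were tested, and 0 of them were called higher. ADAMTS3, which processes procollagen and takes part in the activation of VEGFC, had the lowest adjusted p of the falls among the 43 genes, with 4.23, 6.25 and 4.09 CPM in D and 24.4, 22.0 and 25.0 CPM in C. The change was −2.29 ± 0.18 (adjusted p = 2.7e-05, edgeR). Of the other 2 procollagen N-proteinases, ADAMTS14 had 7.28, 9.99 and 5.17 CPM in D and 11.7, 11.3 and 11.1 CPM in C. Its fall of 0.60 ± 0.21 (adjusted p = 0.040, edgeR) was not called without C replicate 1 (−0.58), C replicate 2 (−0.61), C replicate 3 (−0.62) or D replicate 1 (−0.58), and it was −0.38 without D replicate 3. ADAMTS2, the main enzyme of collagen I maturation, was tested and not called (0.11 ± 0.13; adjusted p = 0.49, edgeR).

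Among the ADAMTS enzymes that cut proteoglycans, ADAMTS15 had 5.36, 5.26 and 3.01 CPM in D and 17.8, 15.5 and 16.9 CPM in C. It fell by 1.88 ± 0.20 (adjusted p = 0.00013, edgeR). ADAMTS9 had 2.26, 2.55 and 1.19 CPM in D and 5.84, 4.76 and 8.86 CPM in C, with a wide spread in both groups that still left them apart (−1.69 ± 0.32; adjusted p = 0.0022, edgeR). ADAMTS1, a versican-cleaving enzyme, had 26.7, 28.4 and 20.4 CPM in D and 15.9, 19.6 and 23.7 CPM in C. These values overlapped and the change was not called (0.35 ± 0.18; adjusted p = 0.13, edgeR), whereas it was called after removal of length trends (0.44) and without D replicate 3 (0.49). The aggrecanase genes ADAMTS4 and ADAMTS5 were at or near the counting limit, with 6, 0 and 2 counts of ADAMTS4 in D and 7, 6 and 5 in C. ADAMTS5 had 0 counts in every D library, which allows up to 3 counts per library, and 2, 5 and 1 counts in C.

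ADAMTS12, which cuts cartilage oligomeric matrix protein, was by far the most abundant ADAMTS gene, at 18.5 ± 5.77 FPKM in D and 40.9 ± 5.67 FPKM in C (SD, n = 3 each). It had 188, 224 and 123 CPM in D and 352, 312 and 408 CPM in C. The change of −1.0 ± 0.21 (adjusted p = 0.0037, edgeR) held without each library in turn, between −1.17 and −0.78. ADAMTS7, its closest relative, had 16, 17 and 13 counts in D and 28, 33 and 30 counts in C. It fell by 0.79 ± 0.22 (adjusted p = 0.014, edgeR), a call that was lost without C replicate 2 (−0.76), without D replicate 3 (−0.69) and in DESeq2 (−0.77). ADAMTS6 had 9.54, 12.9 and 8.52 CPM in D and 20.3, 20.3 and 23.4 CPM in C (−1.05 ± 0.17; adjusted p = 0.00097, edgeR). ADAMTS10, ADAMTS13, ADAMTS16 and ADAMTS18 were tested and not called, with log2 fold changes between −0.27 and 0.16.

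The inhibitors were among the most abundant genes of the whole group. TIMP1, which also has growth-promoting activity, had 280.1, 226 and 381 CPM in D and 157, 163 and 139.9 CPM in C. It rose by 0.95 ± 0.18 (adjusted p = 0.0025, edgeR), by 0.74 without D replicate 3 and by 0.66 with length trends removed. TIMP3, the inhibitor that stays bound to the matrix and also blocks ADAM17, had 887, 1026 and 811 CPM in D and 1140, 1124 and 1165 CPM in C. Its groups did not overlap, and the small fall of 0.33 ± 0.12 passed narrowly (adjusted p = 0.039, edgeR). The call was lost without C replicate 1 (−0.34), C replicate 2 (−0.35), C replicate 3 (−0.32) or D replicate 1 (−0.31), with RLE factors (−0.31) and in the fit with replicate blocks (−0.34).

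TIMP2, which also helps MMP14 to activate MMP2, had 723, 765 and 528 CPM in D and 765, 693 and 733 CPM in C. D replicate 3 was low and the other 2 D libraries lay within the C range, and the change of −0.12 ± 0.15 (adjusted p = 0.51, edgeR) was 0.04 without D replicate 3. TIMP4 was barely detected, with 27, 25 and 20 counts in D and 3, 3 and 1 counts in C. The ratio of the scaled sums was 10.6, with a 95% exact interval of 4.87 to 27.2 for counting error (adjusted p = 0.00015, edgeR). TIMP1, TIMP3 and TIMP4 lie inside the synapsin genes SYN1, SYN3 and SYN2 on the other strand, and the strand setting of the counting is not given in the sources used here. The synapsin genes had few counts: SYN1, like TIMP1, was higher in every D library, with 11, 15 and 9 counts in D and 3, 4 and 4 in C. SYN2 had 0, 2 and 0 counts in D and 6, 1 and 1 in C, where TIMP4 was higher in D. SYN3 rose, with 43, 52 and 31 counts in D and 25, 21 and 19 in C (1.13; adjusted p = 0.0049, edgeR), where TIMP3 fell. SYN1 and SYN2 were not tested.

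The order of the inhibitors changed with the group. Per length, TIMP1 led all 58 genes in D at 349.8 ± 81.9 FPKM, ahead of MMP2 with no overlap between libraries, whereas TIMP3 led in C at 262 ± 5.70 FPKM (SD, n = 3 each). In D, MMP2, TIMP3, TIMP2 and MMP14 followed, and each neighbouring pair of these overlapped in range. In C, MMP2, TIMP2, MMP14 and TIMP1 followed, and the last 3 overlapped from neighbour to neighbour. TIMP1 over TIMP3 was 1.82, 1.27 and 2.71 in the D libraries and 0.796, 0.834 and 0.693 in the C libraries, as a ratio of FPKM. TIMP1 supplied 39.5% to 59.8% of the summed TIMP FPKM in D and 27.9% to 31.9% in C.

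Proteases against inhibitors gave a balance that depended on which genes were summed. The summed FPKM of the 47 proteases was 697, 678 and 652 in D and 758, 748 and 765 in C, and that of the 4 TIMPs was 714, 696 and 731 in D and 689.8, 670.4 and 666 in C. The ratio of proteases to TIMPs was 0.976, 0.975 and 0.892 in D and 1.10, 1.12 and 1.15 in C, and the mean log2 ratio was −0.08 ± 0.07 in D and 0.16 ± 0.03 in C (SD, n = 3 each), a difference of −0.24. The sums are led by a few genes, MMP2 alone giving 31.3% to 34.2% of the protease sum in D and 30.3% to 31.5% in C. MMP1 supplied 11.8% to 14.9% in D and 2.69% to 3.10% in C.

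Split by family, the ratio to the TIMPs was close to level for the MMPs, with a mean log2 ratio of −0.48 ± 0.04 in D and −0.44 ± 0.02 in C (SD, n = 3 each). For the secreted MMPs alone the log2 ratio was −1.07 ± 0.02 in D and −1.32 ± 0.01 in C, higher in D by 0.25. For the catalytic ADAMs it was lower in D by 0.66 and for the ADAMTS enzymes by 1.06, as a difference of mean log2 ratios. These ratios compare summed transcripts only, and which TIMP blocks which enzyme did not enter them. Leaving out TIMP1, at 797 bp the shortest tested member, turned the difference of the full sums to 0.23, and summing CPM in place of FPKM brought it to −0.09. MMP1 over TIMP1 was 0.244, 0.321 and 0.222 in D and 0.0982, 0.108 and 0.121 in C, as a ratio of FPKM. No test was made on these sums, because the genes were chosen with results of the data known.

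**Figure D3:**
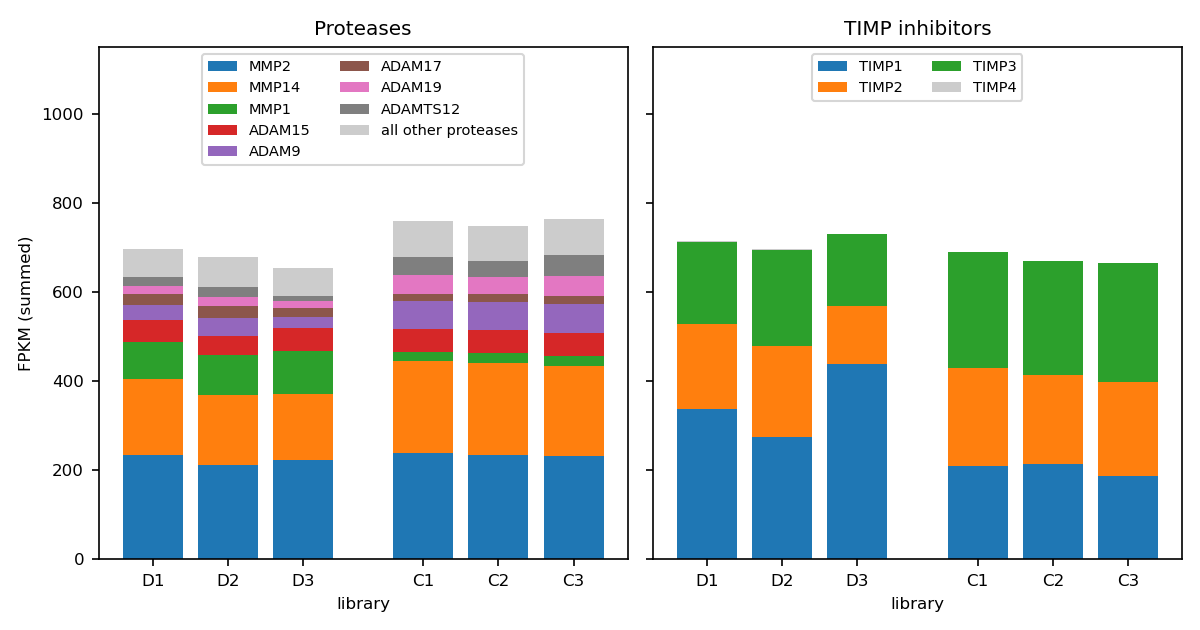
Summed FPKM on the y axis, for the proteases (left) and the TIMPs (right), in each D and C library on the x axis; each colour is a gene and pale grey the remaining genes. The protease bars are lower in D (652 to 697) than in C (748 to 765) although the MMP1 segment is larger in D, and the TIMP1 segment takes a larger part of the TIMP bar in D.

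Gene length moved with these changes. The 12 genes called higher had a median length of 2153.5 bp and the 19 called lower one of 6425 bp, against 4081.5 bp for all tested genes. Up to 3000 bp, 9 of 11 tested members rose, where 33.7% of all tested genes of that length were called higher. Over 6000 bp, 12 of 14 members fell, where 31.3% of all tested genes of that length were called lower. ADAM17 at 6671 bp and MMP25 at 5293 bp were long genes that rose, and ADAM21 at 2647 bp and MMP17 at 3105 bp were shorter genes that fell.

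The libraries that stood apart along length were also the extreme ones here. D replicate 3 was farthest from C for 16 of the 19 falling members and for 7 of the 12 rising ones, and D replicate 2 was nearest to C for 14 of the 19. After removal of length trends, all 12 rises and all 19 falls were still called, and ADAMTS1 and MMP14 were called in addition. The change was then 2.07 for MMP1, 2.08 for MMP3, 0.91 for ADAM17, −0.90 for ADAM10 and −2.13 for ADAMTS3. Without D replicate 3, 12 of the 12 rises and 18 of the 19 falls were called, and without D replicate 2 all 31 were.

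**Figure D4:**
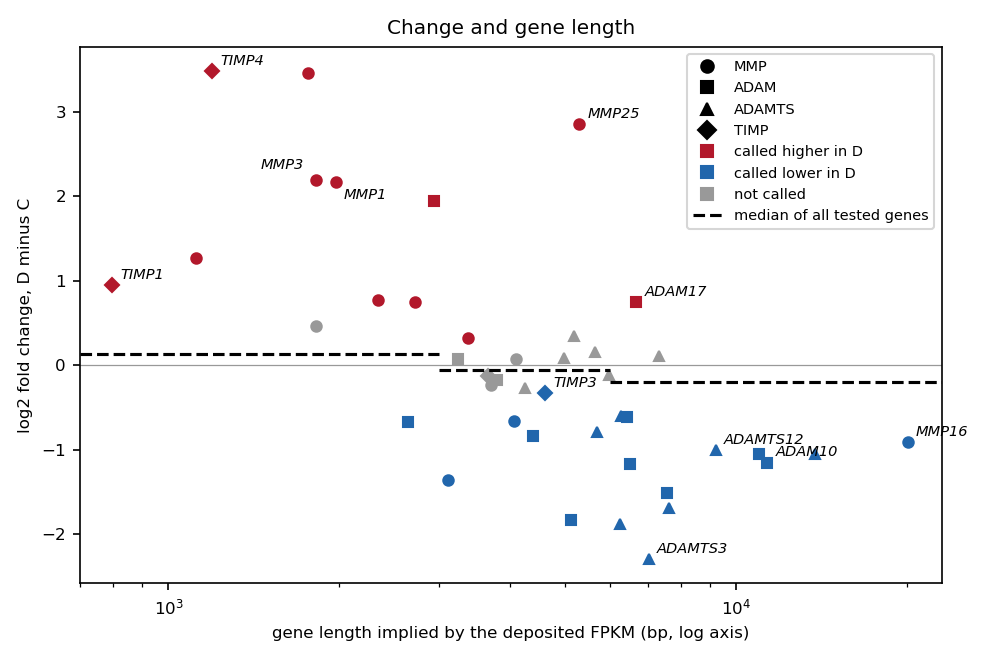
Log2 fold change (D minus C) on the y axis against the gene length implied by the deposited FPKM on a log x axis, for the 43 tested genes; symbols give the family, colours the call, and dashed lines the median of all tested genes up to 3000 bp (0.14), up to 6000 bp (−0.05) and above (−0.20). Members with short genes lie mostly above their dashed line and those with long genes mostly below it.

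Genes that act together with these enzymes were read in lists chosen with earlier results of the data known, beside the 26.8% higher and 27.7% lower calls among all tested genes. In a mixed list of other genes tied to protease inhibition, 2 of 4 tested genes rose and 1 fell. RECK, a membrane-anchored inhibitor of MMPs, fell to 8.60 ± 0.522 CPM in D, against 26.0 ± 2.51 CPM in C (−1.60 ± 0.13; adjusted p = 3.1e-05, edgeR). TFPI2, a secreted inhibitor of serine proteases, rose to 80.7 ± 14.6 CPM in D, against 44.0 ± 3.20 CPM in C (0.87 ± 0.15; adjusted p = 0.0013, edgeR), and the proteoglycan gene SPOCK2 rose by 1.93 ± 0.38 (adjusted p = 0.0030, edgeR).

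In the plasminogen system, whose protease plasmin activates MMP precursors, 2 of 11 tested genes rose (18.2%) and 4 fell (36.4%). The activator genes PLAT and PLAU fell, PLAT to 16.4 ± 2.74 CPM in D, against 67.2 ± 0.614 CPM in C (−2.03 ± 0.14; adjusted p = 1.7e-05, edgeR). PLAU, the urokinase gene, averaged 257 ± 21.9 CPM in D and 426 ± 9.41 CPM in C (−0.73 ± 0.10; adjusted p = 0.00050, edgeR). The serpin genes SERPINB8 (2.38 ± 0.15) and SERPINE2 (0.63 ± 0.10), the second of which inhibits plasminogen activators, rose (adjusted p = 1.2e-05 and 0.0011, edgeR). The count of falls in this list was 2 in the fit with replicate blocks and 2 to 4 with each library left out in turn, 2 of them without C replicate 1, C replicate 2, C replicate 3 or D replicate 1.

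FURIN, the convertase that removes the inhibitory segment of membrane-type MMPs and ADAMs, fell to 144 ± 9.26 CPM in D, against 311 ± 7.64 CPM in C (−1.11 ± 0.10; adjusted p = 5.1e-05, edgeR). It was the only one of 5 tested convertase genes that was called. Of 9 genes whose proteins escort ADAM10 or ADAM17 to the cell surface, 1 rose and 5 fell. TSPAN14, a tetraspanin partner of ADAM10, fell by 0.99 ± 0.13 (adjusted p = 0.00029, edgeR). The iRhom genes, partners of ADAM17, went apart: RHBDF2 fell by 0.86 ± 0.11 and RHBDF1 rose by 0.42 ± 0.10 (adjusted p = 0.00027 and 0.0084, edgeR), and the rise of RHBDF1 was lost without C replicate 2 (0.40) and with library size only (0.27).

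Related metalloprotease genes had 3 of 12 tested members higher (25.0%) and 3 lower (25.0%), close to the shares among all tested genes. PAPPA2, which cuts IGF-binding proteins, rose by 1.88 ± 0.30 (adjusted p = 0.00097, edgeR) and the rare MEP1B by 2.32 ± 0.33 (adjusted p = 0.00049, edgeR). ADAMTSL4, an ADAMTS-like protein without protease domain, fell by 1.55 ± 0.18 (adjusted p = 0.00018, edgeR), and the endothelin-converting enzyme gene ECE1 by 0.48 ± 0.13 (adjusted p = 0.012, edgeR). Of 5 tested cathepsin genes, lysosomal proteases that also degrade matrix, 4 rose and 1 fell. CTSD averaged 1270 ± 164 CPM in D and 433 ± 11.5 CPM in C (1.55 ± 0.12; adjusted p = 3e-05, edgeR), CTSS rose by 0.68 ± 0.13 (adjusted p = 0.0022, edgeR), and CTSV fell by 0.88 ± 0.23 (adjusted p = 0.010, edgeR).

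Among 12 tested matrix substrates 0 rose and 6 fell, with a median log2 fold change of −0.49. LAMA5, a laminin chain, averaged 11.4 ± 1.06 CPM in D and 29.4 ± 3.93 CPM in C (−1.37 ± 0.14; adjusted p = 0.00011, edgeR). AGRN, the agrin gene, fell by 0.69 ± 0.10 (adjusted p = 0.00063, edgeR). These genes were long, with a median of 8826 bp.

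Markers of other cell types were read beside these results, and their part in them was not tested. The summed level of 6 fibroblast markers, which fibroblast-like cells and some tumours share, was 776 to 916 CPM in D and 1589 to 1654 CPM in C, and 1 of 5 tested genes rose and 3 fell. The summed level of 6 endothelial markers was 198 to 222 CPM in D and 325 to 383 CPM in C, with KDR at 3 or fewer counts in every library. ENG led this sum, 0 of 5 tested genes rose and 3 fell, and CDH5 fell by 2.93 on the log2 scale (adjusted p = 2.4e-05, edgeR). That of 7 epithelial markers was 102 to 135 CPM in D and 79.7 to 89.3 CPM in C, led by KRT8 and KRT18. Of its 3 tested genes 2 rose and 0 fell, KRT18 by 0.90 and CDH1 by 1.87 (adjusted p = 0.00095 and 0.0020, edgeR). The osteoblast list summed to 73.3 to 80.4 CPM in D and 209 to 268 CPM in C, led by COL1A2, and 1 of 7 tested genes rose and 4 fell.

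The 15 members that did not pass the filter had at most 11 counts in any library. They are ADAM7, ADAM18, ADAM20, ADAM28, ADAM29, ADAM33, ADAMTS4, ADAMTS5, ADAMTS17, ADAMTS20, MMP8, MMP11, MMP21, MMP23B and MMP24, and 7 of them stayed at or under 3 counts in every library. ADAMTS20 had the highest count, with 11, 9 and 5 counts in D and 0, 0 and 2 counts in C.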

How the data were processed

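RNA-seq of 6 libraries labelled SaOS2 was used, 3 in each of groups D and C, which were read from the sample titles. Per the labels' protocols, a Qiagen kit was used for RNA and a SMARTER mRNA kit for the libraries. The authors deposited raw counts per gene symbol and FPKM values. Each deposited FPKM equalled the count divided by the library total and by 1 length per gene, shared by the 6 libraries, for 17144 of 17144 genes (relative tolerance 0.001), and these lengths were used here. Neither aligner and counting program nor strandedness is given in the sources used here. The labels name the mouse, and the submitters' processing notes name the builds GRCm38 and mm10, but symbols are written in capitals, as in human naming. In letter case 0 of the 58 members matched a mouse symbol, and 56 matched a mouse symbol put in capitals. A match in capitals does not tell the species apart, and what the members without such a match imply was not tested. No coordinates or sequences are given.

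Counts were filtered with filterByExpr, which kept 12682 genes, scaled with TMM and tested with edgeR 4.0.16 in R 4.3.3 (quasi-likelihood F test, group as the only term, 2-sided, Benjamini-Hochberg adjustment over all tested genes). Standard errors are the log2 fold change divided by the square root of F. The alternatives were DESeq2 1.42.0, limma 3.58.1 (voom on counts, trend on log2 FPKM with pseudocounts of 1 and 0.1), other scalings, filters and thresholds, replicate blocks, leaving out each library, and removal of length trends by lowess with a span of 0.4. The fits were tested on simulated data. Depth gives a floor of 3 counts, or 0.1456 to 0.1626 CPM; floors and intervals cover counting error only, since PCR reads are not independent molecules. Replicates of a group differed by more than sampling noise (chi-square per degree of freedom 6.21 to 90.49). The members and gene lists were chosen with earlier results of these data known. Named in full were all called members, MMP1, MMP3, the TIMPs and the 5 most abundant members not called, and up to 2 called genes per direction and list.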

Additional observations from a re-analysis of the deposited data

How the results depend on the processing

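All 31 called members kept their direction in the 19 alternatives, and 25 were called in each alternative that gave them a value. The calls of MMP7, MMP16, MMP19, ADAMTS7, ADAMTS14 and TIMP3 were not. Among members not called, signs that turned included those of ADAM15 (−0.08) and MMP2 (−0.07) with library size only and in the 3 fits on FPKM, of ADAMTS2 (−0.04) and ADAMTS16 (−0.06) with library size only, of ADAMTS13 (0.01) with length trends removed, and of TIMP2. With a library left out, TIMP2 ranged from −0.19 without D replicate 2 to 0.04 without D replicate 3, and it was −0.27 with library size only. A pseudocount of 1 on FPKM shrank the changes of genes at low levels, ADAMTS3 to −1.47. Library size only moved the median log2 change of all genes to −0.173, against −0.023, and the share of calls that were higher to 36.8%, against 49.2%; the 12 higher and 19 lower members became 11 and 20. Leaving out 1 library gave 7 to 10 higher and 13 to 15 lower proteases, 2 higher and 0 to 1 lower TIMPs, 1 higher and 3 lower noncatalytic ADAMs, and over all genes 2627 to 3888 higher and 2780 to 3879 lower. The fits on FPKM above 1, which tested 28 members, called 5 proteases and 1 TIMP higher, 0 noncatalytic ADAMs higher and 1 lower with either pseudocount, and over all genes 2213 (pseudocount 1) and 2209 (0.1) higher, against 3393. A minimum of 1 CPM left 0 noncatalytic ADAMs higher. TIMP falls were 0 with RLE factors and at an adjusted p under 0.01.

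The replicate numbers showed no sign of pairing: deviations of same-numbered D and C libraries correlated at 0.008, −0.397 and −0.365. D replicates 1 and 2 correlated best with C replicate 3 (0.094 and 0.345), and D replicate 3 with C replicate 2 (0.423). These deviations still hold the length trends, with slopes of 0.1704 and −0.183 in D replicates 2 and 3 and −0.0492 and 0.0504 in C replicates 2 and 3. The check therefore cannot decide whether same-numbered libraries were paired. With the replicate number as a block, 10 members were higher and 18 lower, 0 TIMPs fell, and 2694 genes were higher and 2977 lower; a call lost this way does not show a weaker effect.

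For the lists, the fits on FPKM above 1 gave 1 rise among the other genes tied to protease inhibition and 0 among ADAM partners. They gave 1 rise among related metalloproteases and 0 falls of cathepsins. Without the filter ADAM partners also had 0 rises. ADAM partners had 0 rises with library size only and with the replicate block, 2 with length trends removed and 0 to 2 with a library left out. Plasminogen falls were 2 at an adjusted p under 0.01, where related metalloproteases had 1 fall and cathepsins 0, and 2 to 4 with a library left out. Convertases had 2 falls with library size only, and matrix substrates 1 rise with length trends removed and 0 to 1 with a library left out. Related metalloproteases had 2 to 3 rises and 2 to 4 falls with a library left out.

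The protease to TIMP difference of −0.24 ranged from −0.27 to −0.20 with a library left out. It turned to 0.23 without TIMP1 and to 0.25 for secreted MMPs only, and was −0.09 on summed CPM; which genes enter the sum decides it by construction. Genes with under 10 counts per library, such as MMP10 and TIMP4 in C, are imprecise at this depth.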
